A study of Homo sapiens with 6 samples.

Results

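The 10 genes described here are the receptors that estrogens and plant isoflavones can act on or through, and genes that respond to estrogens, followed in HepG2 cells with and without the isoflavone formononetin. They are the nuclear estrogen receptors ESR1 and ESR2, the membrane receptor GPER1, the orphan receptor ESRRA, and GREB1, TFF1, NRIP1, PGR, IGFBP4 and HSD17B2. They were taken by gene symbol, and all 10 were found among the 60564 rows of the count table that carry an Ensembl gene identifier. HepG2 is an established line from a human liver tumour, and the question is which of these transcripts differ in level once the compound is given. Each of the 3 formononetin libraries came from wild-type HepG2 cells exposed for 72 h, at 625 in a unit that the labels write as μm. The 3 control libraries carry wild type and DMEM as their labels, with no solvent and no culture time named. The cells of both groups were grown in DMEM with 10% fetal calf serum, and serum brings steroid hormones of its own.

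Estrogen receptors alpha (ESR1) and beta (ESR2) are transcription factors that bind estradiol, pair up and sit on a palindromic DNA element, where they recruit coactivators or corepressors. GPER1 answers estrogens at membranes through G proteins. ESRRA resembles the estrogen receptors but does not bind estradiol, and works with PGC-1 coactivators on genes of mitochondrial energy supply. Formononetin is the methyl ether of daidzein, an isoflavone that binds estrogen receptors and prefers the beta form, and liver cells can remove the methyl group. In hepatocytes, estrogens change the output of several plasma proteins, and hepatocytes also oxidise and conjugate estrogens for excretion.

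The sequences upstream of 3 members are shown because these genes stand for the outcomes below: IGFBP4 was raised, NRIP1 was lowered and ESRRA was not called. Each is the 250 bases before a RefSeq transcription start (GRCh38.p14), written 5′ to 3′ on the gene's own strand, and none of them overlaps an exon of GENCODE 29, though that of NRIP1 lies within an intron of transcripts that start farther upstream. Capitals mark matches on either strand to the motifs searched. They were the full estrogen response element GGTCANNNTGACC, a single arm of it (GGTCA), the element of estrogen-related receptors TCAAGGTCA, the GC box of Sp1 (GGGCGG), the TATA box TATAAA and the dioxin response core TNGCGTG. The arm lies within both longer receptor elements, so a match to either of those is also a match to it. The windows are chr17:40443200-40443449 (plus strand) for IGFBP4, chr21:15065001-15065250 (minus strand) for NRIP1 and chr11:64305274-64305523 (plus strand) for ESRRA.
IGFBP4: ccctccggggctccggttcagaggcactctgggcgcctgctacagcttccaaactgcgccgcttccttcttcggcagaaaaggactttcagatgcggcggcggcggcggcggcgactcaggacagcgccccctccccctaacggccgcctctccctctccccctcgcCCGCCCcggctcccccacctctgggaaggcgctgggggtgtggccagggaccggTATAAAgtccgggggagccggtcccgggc
NRIP1: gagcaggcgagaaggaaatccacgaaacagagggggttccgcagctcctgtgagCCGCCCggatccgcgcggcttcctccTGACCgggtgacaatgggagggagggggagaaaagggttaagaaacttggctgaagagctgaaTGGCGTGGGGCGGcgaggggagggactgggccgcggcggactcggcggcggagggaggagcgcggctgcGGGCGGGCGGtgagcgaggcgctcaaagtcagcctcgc
ESRRA: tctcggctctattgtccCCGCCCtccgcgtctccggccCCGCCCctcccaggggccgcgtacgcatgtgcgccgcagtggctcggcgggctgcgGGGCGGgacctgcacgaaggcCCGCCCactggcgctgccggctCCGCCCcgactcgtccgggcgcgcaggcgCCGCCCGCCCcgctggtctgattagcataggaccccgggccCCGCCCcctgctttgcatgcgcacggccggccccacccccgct
The NRIP1 window held 1 arm of the element, 4 GC boxes and 1 dioxin response core. It was chosen because it is the only one of the 3 NRIP1 windows with an arm or a dioxin response core, and the others, at chr21:15065937-15066186 and chr21:15064591-15064840, held 1 and 2 GC boxes and none of the other motifs. The IGFBP4 window held 1 GC box and 1 TATA box, and the ESRRA window held 8 GC boxes. Over all 35116 such windows of 27305 genes, an arm was found in 32.6%, a GC box in 42.6%, a TATA box in 10.7% and a dioxin response core in 4.52%. The full estrogen response element was found in 14 windows (0.0399%) and the estrogen-related receptor element in 112 (0.319%), and neither was in any of the 21 windows of the 7 members that could be matched (all but GREB1, TFF1 and HSD17B2). These matches describe letters only, and elements farther from a start were not searched.

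Counts on named genes ranged from 30848848 to 45682722 per library and were higher in every formononetin library (exact permutation p = 0.1, two-sided, the smallest that 3 against 3 allows). Transcript levels are given in CPM (counts divided by TMM-scaled library sizes), where 3 counts equal 0.0657 to 0.0973 CPM before that scaling, and changes as log2 fold changes of formononetin against control ± standard error. A gene was called at an adjusted p under 0.05 (edgeR quasi-likelihood test, adjusted over the 22230 genes tested), and 20.7% were, 12% raised and 8.71% lowered. The better expressed a gene is, the easier its call, and the share was 34.4% for the 10397 that averaged at least 3 on the log2 CPM scale. Upper quartile scaling turned the split of 2659 raised and 1937 lowered genes into 1813 and 2737. Without formononetin replicate 3 the calls fell to 3049 (1703 raised), and without control replicate 3 the lowered genes to 1272. All 10 hepatocyte markers were present, with 8 lowered and 1, HNF4A, raised from 185 ± 6.41 to 251 ± 31.3 CPM. The sum over all 10 ranged over 47433 to 48802 CPM in the controls and 39199 to 40329 CPM after exposure. Most of it came from APOB, TF and ALB. In these bulk libraries a smaller share of cells of a kind and less RNA per cell cannot be told apart. Of 6 breast epithelium markers GATA3 and SCGB2A2 had no counts, 4 were under 1 CPM in every library and ELF5 was lowered. PRLR, not called, gave most of the sum, which was 27.0 to 36.1 CPM in the controls and 30.3 to 37.3 CPM after exposure. Of 6 fibroblast markers DCN, LUM, COL1A2 and COL3A1 had none, while PDGFRB was lowered from 13.3 ± 1.11 to 4.04 ± 0.361 CPM. Of 5 endothelial markers TEK had none and PECAM1 gave most of a sum of 22.1 to 28.2 CPM over all libraries, with no call. Of 5 immune markers PTPRC and CD3E had none, LYZ was lowered from 1234 ± 48.6 to 982 ± 22.1 CPM and CD68 was raised from 3.35 ± 0.832 to 6.73 ± 1.31 CPM. Of 5 bile duct markers CFTR had none, SOX9 and EPCAM were lowered, and the sum was 543 to 577 CPM in the controls and 481 to 496 CPM after exposure. The part of these markers in the results below was not tested.

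Of the receptors, only GPER1 and ESRRA had ample counts, and none was called. ESR1, the classic estrogen receptor (chromosome 6, 151656691 to 152129619, GRCh38), had 25, 34 and 32 counts in the controls and 27, 30 and 34 in the treated libraries, each in the order of their replicate numbers. That is 0.823, 0.95 and 0.944 CPM against 0.670, 0.787 and 0.751 CPM. The groups did not overlap, which held for 39.4% of all tested genes, and the change of -0.30 ± 0.20 was not called (adjusted p = 0.358, 95% interval -0.78 to 0.18). At this depth neither a fall of that lower bound nor a small rise could be told from no change.

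ESR2, the form that isoflavones prefer (chromosome 14, 64084232 to 64338112), had 18, 17 and 20 counts in control and 21, 87 and 33 in formononetin libraries. In CPM these were 0.592, 0.475 and 0.590 against 0.521, 2.28 and 0.729. Formononetin replicate 2 was far above all other libraries, while replicate 1 lay within the control range. The log2 change was 1.08 ± 0.56 (adjusted p = 0.232, 95% interval -0.24 to 2.40) and 0.19 without formononetin replicate 2 (adjusted p = 0.754). No direction can be read for ESR2 from these libraries. The third receptor with too few counts was PGR, the progesterone receptor and a standard readout of ESR1 activity (chromosome 11, 101029624 to 101130524). It had 3 counts in control replicate 1 and none in the other 5 libraries, was removed by the low-count filter, and has no fold change here.

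GPER1 (chromosome 7, 1082208 to 1093815) stood at 19.6, 19.9 and 17.3 CPM in the controls and at 15.9, 18.3 and 20.0 CPM after exposure. The highest and the lowest library were both treated ones, and the groups overlapped. Its log2 change was -0.07 ± 0.11 (adjusted p = 0.709), with a 95% interval of -0.32 to 0.18, and without formononetin replicate 1 it was 0.01.

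ESRRA (chromosome 11, 64305572 to 64316743) stood at 29.2, 28.6 and 30.9 CPM in the controls and at 30.7, 27.8 and 27.2 CPM after exposure. These ranges overlapped too, and the log2 change of -0.05 ± 0.07 was not called (adjusted p = 0.698, 95% interval -0.22 to 0.12). The interval leaves out changes of a size like those of GREB1 or IGFBP4 below. TRMT112, on the opposite strand, shares 284 exon bases with ESRRA (9.37% of its exons) and was itself raised by 0.34 ± 0.08 on the log2 scale, so the count of ESRRA is uncertain where strand was not used.

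The remaining relatives had few transcripts. ESRRB had 7, 22 and 17 counts in control and 23, 26 and 32 in formononetin libraries (log2 change 0.52 ± 0.36, adjusted p = 0.365), and ESRRG had none in any library. Of the steroid receptors outside the estrogen group, the glucocorticoid receptor NR3C1 was the one at a high level, at 45.9 to 63.3 CPM over the 6 libraries, and it was not called (-0.14 ± 0.10, adjusted p = 0.374). The mineralocorticoid receptor NR3C2 was at 2.39 to 3.23 CPM and its log2 change was 0.00 ± 0.17. Of 5 tested estrogen and estrogen-related receptors, edgeR called 0, with 0 at an unadjusted p under 0.05 and 0 by limma voom or DESeq2. The same counts held for the 2 other steroid receptors tested.

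**Figure D1:**
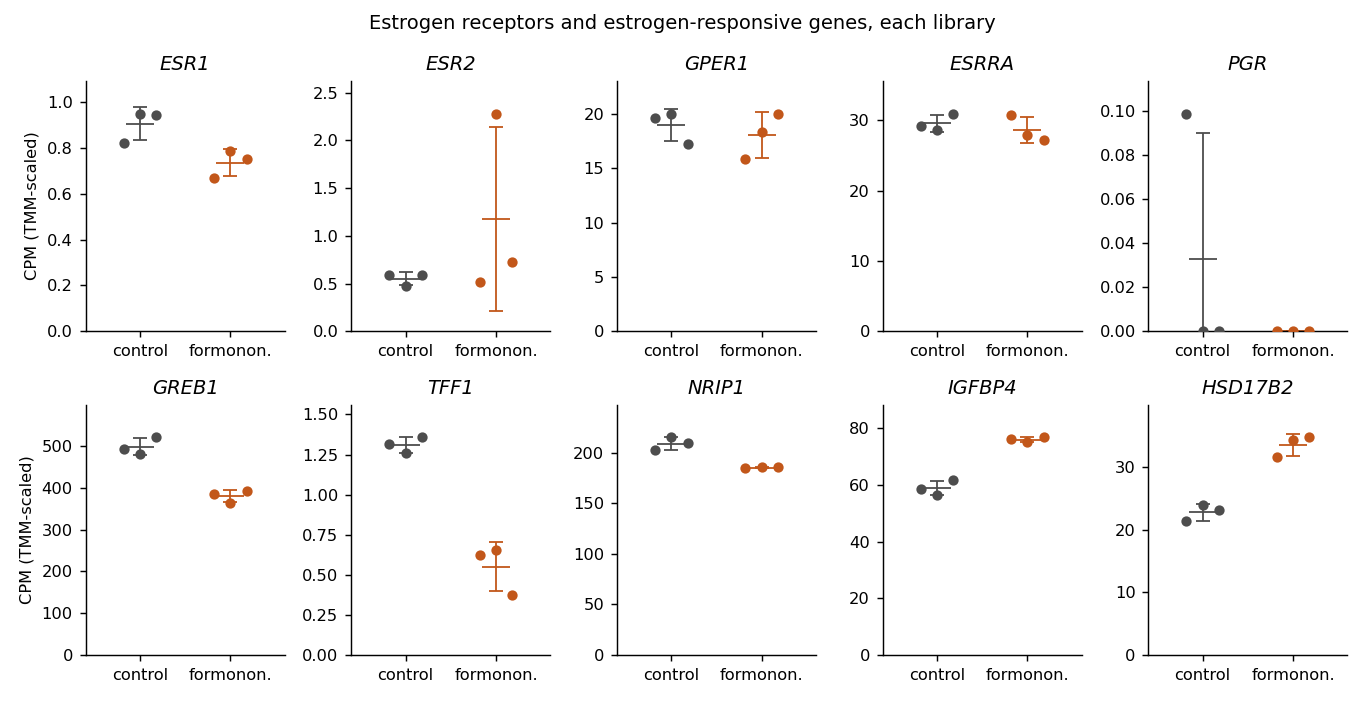
CPM of each gene in the 3 control (grey) and 3 formononetin (orange) libraries, one panel per gene with its own axis from 0. Points are libraries from replicate 1 to 3 and bars are mean ± SD. The groups are apart for GREB1, TFF1, NRIP1, IGFBP4 and HSD17B2 and by a small gap for ESR1, while 1 formononetin library of ESR2 stands above all others.

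Among the responsive genes, GREB1, TFF1 and NRIP1 were lower with formononetin while IGFBP4 and HSD17B2 were higher. GREB1, named for its growth regulation by estrogen in breast cancer cells and able to bind the receptor (chromosome 2, 11482341 to 11642788), was at 493, 482 and 521 CPM in control. In formononetin libraries it was at 385, 364 and 393 CPM, each below the lowest control. Its log2 change was -0.39 ± 0.05 (adjusted p = 0.00173), with a range of -0.47 to -0.35 over 15 alternative settings.

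TFF1, a small secreted trefoil peptide of mucous surfaces and the textbook estrogen target of breast cells (chromosome 21, 42362282 to 42366594), had few reads. Its counts were 40, 45 and 46 in control and 25, 25 and 17 in formononetin libraries, although the treated libraries were the deeper ones. That put it at 1.32, 1.26 and 1.36 CPM in the controls and at 0.620, 0.655 and 0.375 CPM after exposure, with no overlap. The fall by 1.26 ± 0.26 on the log2 scale was the largest among the 10 genes (adjusted p = 0.0137, 95% interval -1.85 to -0.66). It was called in all 15 alternatives, with an adjusted p of up to 0.0468, reached without control replicate 3. The filter of at least 1 CPM in 3 libraries is among them. TFF1 passed it through its control libraries alone, so this setting adds no support. Of the related trefoil genes, TFF3 averaged 1.96 ± 0.154 CPM without and 1.70 ± 0.268 CPM with formononetin (n = 3, -0.21 ± 0.17, adjusted p = 0.465), and TFF2 had no counts.

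NRIP1, also called RIP140, is a corepressor that docks on ligand-bound estrogen receptors and is itself induced by estrogen in breast cells (chromosome 21, 14961235 to 15065936). Its values were 203, 215 and 210 CPM in the controls and 185, 186 and 186 CPM after exposure. The 3 treated libraries lay closely together and below every control. The log2 change of -0.17 ± 0.04 was called (adjusted p = 0.0211), but not without control replicate 2 or 3, without any 1 formononetin library, with library totals as the only scaling or without a low-count filter (adjusted p up to 0.0729).

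IGFBP4 binds insulin-like growth factors and holds them from their receptor (chromosome 17, 40443461 to 40457731). Its values were 58.5, 56.6 and 61.7 CPM in the controls and 76.1, 75.2 and 76.8 CPM after exposure, each above the highest control. The log2 change was 0.37 ± 0.05 (adjusted p = 0.00285), and 0.29 to 0.41 over 15 alternatives.

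HSD17B2 encodes the dehydrogenase that oxidises estradiol to the weaker estrone, and testosterone to androstenedione (chromosome 16, 82035004 to 82098534). Its values were 21.3, 24.0 and 23.1 CPM in the controls and 31.5, 34.2 and 34.7 CPM after exposure. The groups were again apart, and the rise of 0.55 ± 0.07 on the log2 scale was the largest called one among the 10 genes (adjusted p = 0.00243). Its antisense neighbour HSD17B2-AS1 shares 248 exon bases with it (2.60% of its exons) and was at no more than 1.24 CPM in any library.

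Of the 10 genes, 9 were tested, 2 were raised, 3 were lowered and 4 were not called. The 5 called genes did not move in 1 direction, and all 5 kept their direction in each of the 15 alternatives. Genes described as raised by estrogen in breast cells fell (GREB1, TFF1, NRIP1) and rose (IGFBP4) in the same libraries. The 10 genes were chosen with results of these libraries known, so their count is only a description. It stands beside the 20.7% called of all genes tested and the 34.4% of the better expressed ones.

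**Figure D2:**
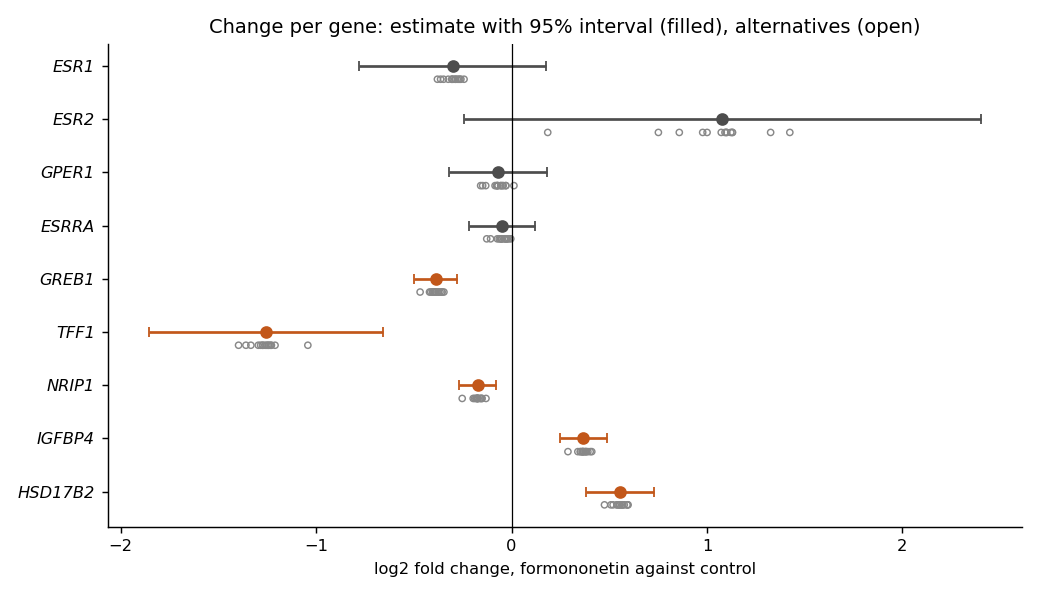
Log2 fold change of formononetin against control for the 9 tested genes, with its 95% interval (filled, orange where the adjusted p is under 0.05). Open circles are the estimates under the alternative settings. The interval of ESR2 runs from -0.24 to 2.40 and its estimate of 0.19 without formononetin replicate 2 stands apart, while those of ESRRA and GPER1 lie close around 0.

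Set on a common scale of CPM per kilobase of exon (union of annotated exons), GREB1 was the highest of the 10 genes in control cells at 40.3 ± 1.65 (SD, n = 3). IGFBP4 followed at 26.8 ± 1.18, NRIP1 at 24.6 ± 0.755, ESRRA at 9.76 ± 0.407 and GPER1 at 6.02 ± 0.468. HSD17B2 and TFF1 did not differ beyond their spread, at 2.39 ± 0.143 and 2.38 ± 0.0910. ESR1 (0.0654 ± 0.00519) and ESR2 (0.0592 ± 0.00718) overlapped as well and were the lowest of the 9 tested genes, with TFF1 36.4-fold above ESR1. With formononetin, IGFBP4 at 34.6 ± 0.366 stood above GREB1 at 30.8 ± 1.19 CPM per kilobase, the reverse of their order in control. That reversal depended on the length used: with the median length of coding transcripts GREB1 was at 98.4 and IGFBP4 at 34.6. The place of HSD17B2 depended on it too, since its coding transcript of 1455 bases gave 15.7 CPM per kilobase in control, above ESRRA at 13.3. By that measure ESR2 at 0.268 ± 0.0326 lay above ESR1 at 0.206 ± 0.0164 in control, with no overlap, and TFF1 was 8.87-fold above ESR2. The coding transcript length was chosen after seeing the data.

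**Figure D3:**
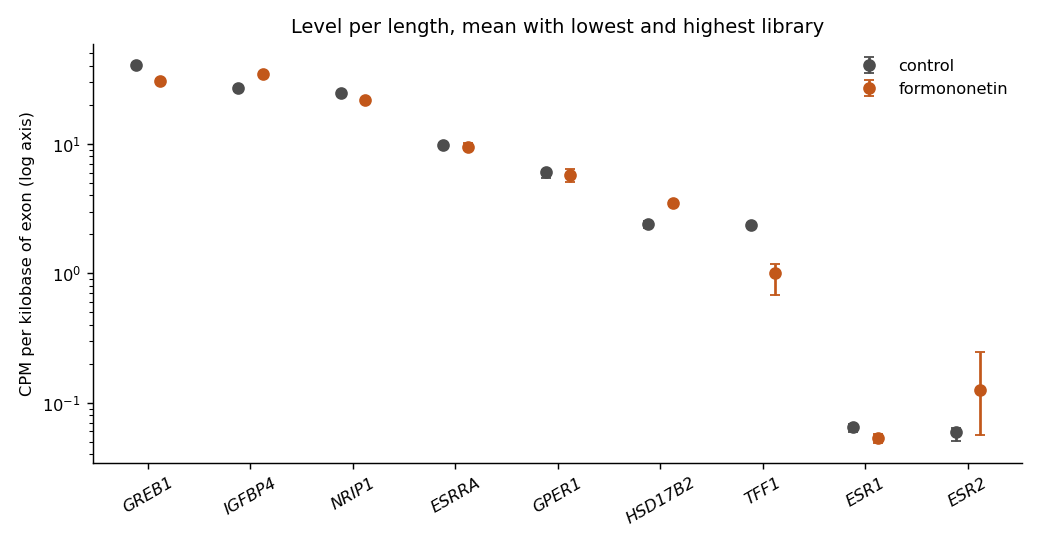
Level per kilobase of exon on a logarithmic axis for 9 genes, in control (grey) and formononetin (orange) libraries. Points are means of 3 libraries and bars reach from the lowest to the highest library. ESR1 and ESR2 sit below 0.25 CPM per kilobase in every library, and GREB1 and IGFBP4 change places between the groups.

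Receptor function depends on chaperones and coregulators. The counts of this and the following lists stand beside 12% raised and 8.71% lowered over all genes tested. Of the better expressed genes, as all of these chaperones are, 34.4% were called in either direction. Of 10 chaperones that keep steroid receptors ready for ligand, 5 rose and 0 fell (median log2 change 0.27, against -0.01 over all genes tested). No chaperone fell by limma voom or DESeq2, or at an unadjusted p under 0.05. FKBP5, a brake on the glucocorticoid receptor and also its target, rose from 30.9 ± 7.45 to 68.9 ± 2.85 CPM (1.16 ± 0.17, adjusted p = 0.00336). HSP90AA1, the inducible HSP90, rose from 699.9 ± 25.1 to 1063 ± 35.9 CPM, and the cochaperone FKBP4, itself estrogen-responsive in breast cells, from 117 ± 2.04 to 171 ± 4.87 CPM.

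Among 19 coactivators 9 fell and 1 rose (median -0.16). The acetyltransferase CREBBP fell by 0.44 ± 0.04 on the log2 scale, its relative EP300 by 0.31 ± 0.04, and NCOA3, which binds ligand-loaded estrogen receptors, by 0.41 ± 0.04 (adjusted p of 0.000869, 0.00153 and 0.000501). The riser was PPARGC1B, a PGC-1 partner of ESRRA, from 7.56 ± 0.884 to 15.4 ± 0.760 CPM (1.02 ± 0.11, adjusted p = 0.00109). The more abundant PGC-1 gene PPARGC1A, named after its values were seen, fell from 137 ± 9.19 to 117 ± 1.28 CPM (-0.23 ± 0.06, adjusted p = 0.0265). That call was lost in 8 of 15 alternatives (adjusted p up to 0.0853). Lowered coactivators numbered 5 without formononetin replicate 1, and raised ones 2 without control replicate 3.

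Of 15 corepressors 4 fell, among them NRIP1, and 0 rose by edgeR, limma voom or DESeq2 or at an unadjusted p under 0.05 (median -0.09). The count called lies between the shares over all genes tested (20.7%) and over the better expressed ones (34.4%). SPEN, which recruits deacetylases, changed by -0.20 ± 0.04 (adjusted p = 0.00736). TBL1X, a subunit of corepressor complexes, changed by -0.19 ± 0.04 (adjusted p = 0.0175). It lost its call without control replicate 3 or formononetin replicate 2 or 3, with library totals as the only scaling and without a low-count filter (adjusted p up to 0.0680 over all alternatives). Lowered corepressors numbered 1 without control replicate 3 or formononetin replicate 2 or 3 and 2 without formononetin replicate 1.

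Of 10 tested factors that open chromatin for estrogen receptors or bind beside them, 2 fell and 0 rose, the latter also by limma voom, by DESeq2 and at an unadjusted p under 0.05. The count called is near the share of 20.7% over all genes tested. FOXA1, the pioneer factor of estrogen receptor binding in breast cells, fell from 79.4 ± 1.53 to 67.1 ± 1.04 CPM (-0.24 ± 0.04, adjusted p = 0.00900). FOXA2, its partner in hepatocyte gene control, fell from 54.2 ± 2.59 to 38.3 ± 1.48 CPM (-0.50 ± 0.06, adjusted p = 0.00168).

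Of 38 genes known to respond to estrogen in breast cells, 29 passed the filter, of which 7 rose and 5 fell (median 0.07). GREB1, TFF1, NRIP1 and IGFBP4 are among them. XBP1, a factor of the unfolded protein response, fell from 407 ± 79.2 to 257 ± 9.48 CPM (-0.66 ± 0.13, adjusted p = 0.0125), and PDZK1, a scaffold of membrane transporters, changed by -0.31 ± 0.07. The EGF receptor ligand AREG rose from 7.42 ± 1.61 to 12 ± 0.302 CPM (0.69 ± 0.15), and ADCY9, an adenylyl cyclase, by 0.38 ± 0.04. PDZK1 lost its call when control 1, control 3, formononetin 1 or formononetin 2 was left out, or without a low-count filter (adjusted p up to 0.0795). AREG lost it when control 1, control 3, formononetin 1 or formononetin 3 was (up to 0.0622). Lowered genes of this list numbered 3 without formononetin replicate 1 or 2.

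Among 22 secreted liver proteins and receptors that estrogens are known to change, 20 were tested, 9 fell and 4 rose (median -0.15). The thyroxine-binding globulin gene SERPINA7, whose protein rises in blood under estrogens, fell from 138 ± 6.30 to 80.4 ± 3.46 CPM (-0.78 ± 0.05, adjusted p = 0.000260). These are transcript levels, which are not comparable with a protein level in blood, and no protein was measured here. Ceruloplasmin (CP), the copper carrier, fell from 465 ± 40.8 to 238 ± 20.1 CPM, and FGB, a fibrinogen chain, from 179.5 ± 5.82 to 102 ± 4.76 CPM. The antithrombin gene SERPINC1 rose by 0.42 ± 0.07. Angiotensinogen (AGT) averaged 1199 ± 18.2 CPM without the compound and 1309 ± 31.8 CPM with it, a call at adjusted p = 0.0472, but not without any 1 of the 6 libraries (adjusted p up to 0.140) with the stricter filter, or with RLE or upper quartile scaling (the last 0.403). Named after their values were seen, SHBG, the sex hormone carrier, was at 3.22 ± 0.445 and 4.62 ± 0.369 CPM and HAMP, the iron hormone hepcidin, rose from 0.774 ± 0.263 to 2.68 ± 0.566 CPM (1.80 ± 0.28, adjusted p = 0.00465). The SHBG call (0.52 ± 0.15, adjusted p = 0.0439) was lost without control replicate 1 or 2 or any 1 formononetin library, with upper quartile scaling and without a low-count filter (up to 0.128). Raised genes of this list numbered 2 without control replicate 1 or 2 or any 1 formononetin library. Most hepatocyte markers were lowered in these libraries, while HNF4A was raised. TF and FGB, both lowered, and APOA1, not called, belong to the markers and to this list. The part of the markers in the falls was not tested.

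HSD17B2 belongs to a list of 27 genes that make, interconvert, conjugate or take up estrogens, of which 23 were tested, 11 rose and 0 fell (median 0.43). By limma voom and DESeq2 0 fell as well, and 1 did at an unadjusted p under 0.05. CYP1A1, a monooxygenase that hydroxylates estradiol, rose from 2.28 ± 0.399 to 472 ± 19.1 CPM (7.69 ± 0.12), and CYP1A2, its relative that also hydroxylates estrogens (named after its values were seen), had 0 counts in every control and 63, 50 and 55 with formononetin. CYP1A2 is among the 11, but it passed the low-count filter through its formononetin libraries alone, so it adds no support to that count. UGT1A1, which glucuronidates estradiol and bilirubin, rose from 6.51 ± 1.09 to 103 ± 9.09 CPM, with the split of reads among UGT1A genes uncertain because they share exons. The sulfotransferase SULT2A1, which acts on steroid precursors, rose from 59.6 ± 1.87 to 110.5 ± 4.58 CPM (0.89 ± 0.05, adjusted p = 0.000144).

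Further genes of estrogen turnover are named after their values were seen. HSD17B4, like HSD17B2 able to oxidise estradiol but mainly an enzyme of peroxisomal fatty acid breakdown, rose from 123 ± 1.39 to 182 ± 1.74 CPM (0.57 ± 0.04, adjusted p = 0.000213). On the synthetic side, the aromatase gene CYP19A1 averaged 14.1 ± 0.237 CPM without and 17.7 ± 0.730 CPM with formononetin (0.32 ± 0.07, adjusted p = 0.02). Steroid sulfatase (STS) was at 13.1 ± 1.63 and 17.6 ± 0.742 CPM (0.43 ± 0.10, adjusted p = 0.0270). The call of CYP19A1 did not survive leaving out control 1, control 3, formononetin 2 or formononetin 3, or upper quartile scaling (adjusted p up to 0.0744). That of STS was lost likewise, and also without formononetin 1 (up to 0.0878). The estrogen sulfotransferase SULT1E1 had 17, 31 and 4 counts in control and 0, 12 and 14 in formononetin libraries, too few to place it.

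In the list of genes that ESRRA is known to bind or drive, which holds ESRRA itself, 6 of 18 tested genes rose, 0 fell and 12 were not called (median 0.25). Over all genes tested 12% were raised, and 34.4% of the better expressed ones were called in either direction. By limma voom and DESeq2 0 fell, and 1 did at an unadjusted p under 0.05. MAOB, a mitochondrial amine oxidase, rose from 36.7 ± 1.40 to 61.3 ± 1.38 CPM (0.74 ± 0.05). TFAM, which packages mitochondrial DNA, rose from 46.0 ± 3.48 to 62.3 ± 2.69 CPM (0.44 ± 0.07, adjusted p = 0.00505).

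In the GPER1 list, GPER1 included, 1 of 9 tested genes rose and 1 fell (median -0.14), near the 20.7% called over all genes tested. SRC, the kinase that links the receptor to growth factor signalling, rose from 172 ± 3.45 to 237 ± 7.43 CPM, and CCN2, a matricellular protein induced through GPER1 in other cells, fell from 287 ± 20.0 to 182 ± 7.04 CPM. In the list of IGF binding proteins and their partners, IGFBP4 included, 2 of 10 tested genes rose and 2 fell (median 0.02). Beside IGFBP4 the raised gene was IGFBP1, the hepatocyte's own IGF binding protein, which rose from 135 ± 19.4 to 215 ± 13.7 CPM (0.67 ± 0.10). PAPPA, the protease that cleaves IGFBP4, fell from 11.2 ± 1.02 to 7.43 ± 0.739 CPM (-0.60 ± 0.12, adjusted p = 0.0122), and the growth factor IGF2 from 2174 ± 148 to 1515 ± 47.8 CPM (-0.52 ± 0.06, adjusted p = 0.00104).

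Over all lists, with each gene counted once, 161 genes were tested, 35 rose and 31 fell, with a median log2 change of 0.02. Among all genes tested 20.7% were called, and 34.4% of the better expressed ones. Some genes stand in more than 1 list, and all lists were chosen with earlier results of these libraries known.

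**Figure D4:**
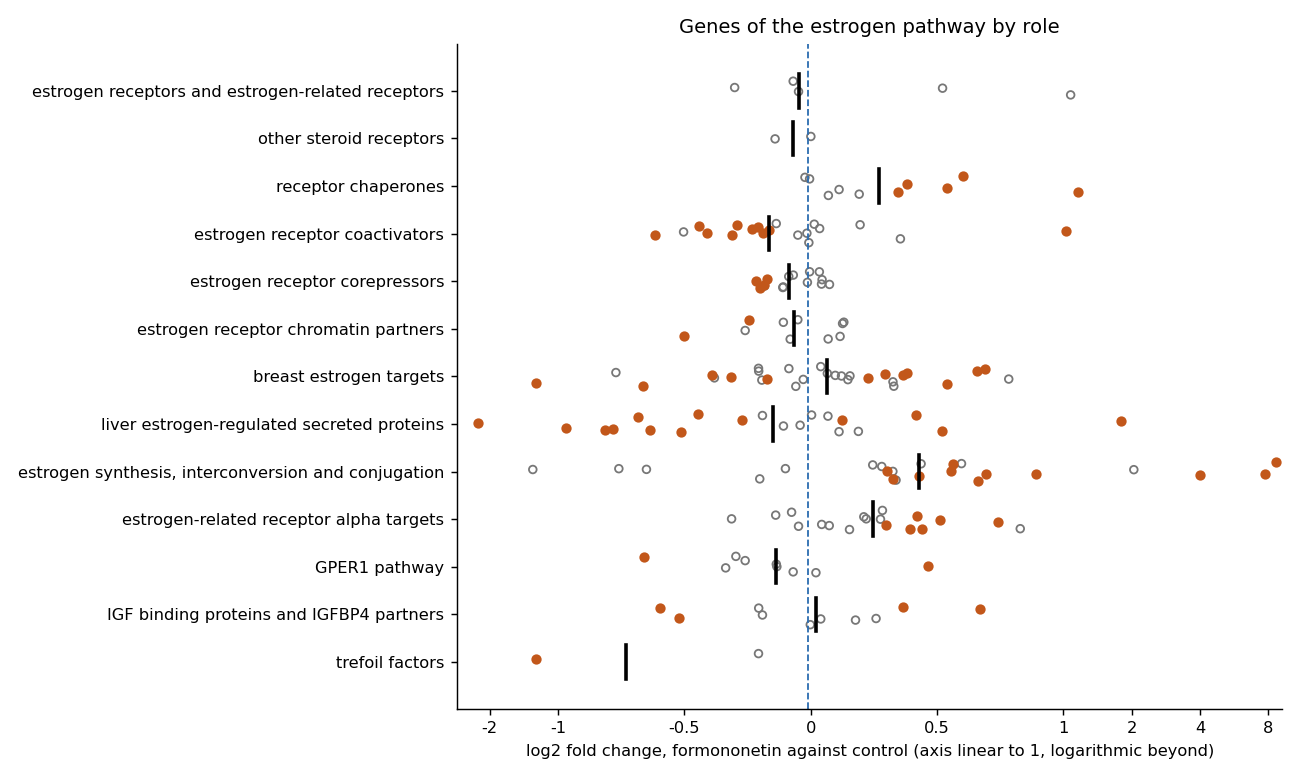
Log2 fold change of every tested gene by list, filled where the adjusted p is under 0.05 and open otherwise. The axis is linear up to 1 in either direction and logarithmic beyond. Black ticks are list medians and the dashed line is the median of all 22230 genes (-0.01). The medians of chaperones (0.27), estrogen turnover (0.43) and ESRRA targets (0.25) lie to the right of it, with open points on both sides, and the filled points among coactivators to the left except PPARGC1B.

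Across the 6 libraries, the genes with the pattern most like that of HSD17B2 were PRDX6 (Pearson r = 0.998 of log2 CPM), CLCN4 (0.998) and GET3 (0.997). For GREB1 they were PTPRG (0.998), DELE1 (0.997) and FOXP4 (0.997). These values describe 6 points that fall into 2 groups sharing treatment and depth, and of 10391 genes compared 788 exceeded 0.95 with HSD17B2 and 464 with GREB1.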

How the data were processed

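Libraries were made from 500 ng of total RNA with a stranded mRNA kit, per the labels' protocols. The authors deposited a table of raw counts per gene with 3 columns for each group. GRCh38, STAR 2.5.3a and StringTie 1.3.1c appear without their roles in the submitters' processing notes. How reads were counted, and whether strand was used, is not given in the sources used here. Genes that overlap are therefore uncertain. Of 62729 rows, 2165 are assembled loci with no gene name (3.82 to 5.62% of counts), which entered neither library sizes nor tests.

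Ensembl identifiers were turned into symbols with a supplied name table; coordinates and exon lengths from GENCODE 29. Genes passing filterByExpr (22230) were compared with edgeR 4.0.16 in R 4.3.3 (TMM, glmQLFit, glmQLFTest, group only, two-sided, Benjamini-Hochberg adjustment over all genes, threshold 0.05), and the code was tested on simulated data. Standard errors were derived from the log2 fold change and its F value, and 95% intervals use the t distribution of the fit. Whether replicates were separate cultures is not labelled, and p-values then reflect library-to-library spread only, possibly technical. Replicates differed by more than counting noise (chi-square per degree of freedom 14.8 to 39.2 within groups). That does not tell separate cultures from separate preparations of 1 culture.

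The 10 genes and all lists were chosen with earlier results of these data known. Genes named were the 10, plus from each list up to 3 raised and 3 lowered called genes with a mean log2 CPM of at least 3 (prior count 2), all listed steroid receptors and trefoil genes, and the 3 genes closest in pattern to 2 of the 10. A few genes that this rule takes are not reported here. Others are marked as named after their values were seen. Alternatives were RLE, upper quartile or no scaling factors, DESeq2 1.42.0, limma voom (limma 3.58.1), 2 other filters, a block for the replicate number and each library left out. Keeping assembled loci and another gene length were chosen after seeing the data. Upstream sequences are from RefSeq (GRCh38.p14). Figures were drawn with matplotlib 3.10.9.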

Additional observations from a re-analysis of the deposited data

How the results depend on the processing

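Over 15 alternatives GREB1, TFF1, IGFBP4 and HSD17B2 stayed called in the same direction, while the call of NRIP1 was lost in 8. Among the 10 genes the called ones numbered 4 or 5 in every setting. Low counts limit ESR1, ESR2, TFF1 and PGR, and ESR1 and ESR2 did not pass the stricter filter (1 CPM in 3 libraries). TFF1 passed it through its control libraries alone. Leaving out 1 library gave 3049 to 3667 genes changed, 1703 to 2189 raised and 1272 to 1478 lowered. It gave 1 to 2 raised and 5 to 7 lowered coactivators, 1 to 3 lowered corepressors, 3 to 4 lowered breast targets and 2 to 3 raised liver proteins. Raised coactivators numbered 3 by library totals and 2 with assembled loci kept or by DESeq2. Lowered corepressors numbered 7 under upper quartile scaling and 1 by library totals, without a low-count filter or with the replicate block. Lowered breast targets numbered 3 without a low-count filter. Raised liver proteins numbered 2 under upper quartile scaling or with the replicate block. Of estrogen turnover genes 1 was lowered by the stricter filter and 1 by upper quartile scaling, and lowered ESRRA targets 1 under upper quartile scaling. Upper quartile scaling moved the median of all genes to -0.09; the cause of the other shifts was not tested. Equal replicate numbers did not pair the libraries (correlations of deviations from -0.02 to 0.01 over 3 pairs); with the replicate number as a block 3283 genes were called, lowered coactivators numbered 5 and the log2 fold change of NRIP1 had adjusted p = 0.0583. The calls of PPARGC1A, TBL1X, AGT, PDZK1, SHBG, CYP19A1 and STS were lost with the block too.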

Other observations

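HSD17B1, which makes estradiol from estrone and is named after its values were seen, differed more between libraries of a group than between the groups. It had 377, 25 and 92 counts in control and 268, 107 and 642 in formononetin libraries, and its log2 change ran from -0.15 to 2.22 when 1 library was left out.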
